A study of Mus musculus with 4 samples.

Results

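The annotated loci with 40 or more exons are those where at least 1 transcript model carries a UCSC identifier and has 40 or more exons. The rule uses gene structure alone, no measured level, and leaves out 2 loci. It found 276 loci among the 35299 loci of the deposited table, or 0.782%, and among 26078 loci with a UCSC model. Their longest UCSC models had a median of 48 exons. The deposited models carry no gene symbols. Each locus was therefore paired with a gene by its structure: the length of an exon and of the introns on both sides, on the same chromosome and strand, was looked up in the GENCODE M21 annotation of the later build GRCm38. The pairing gave a name to 273 loci. In 202 of them every such exon was found in 1 gene, and the lowest share was 55.7%. The remaining 3 loci are given by position. A name here stands for this structural match, not for an identifier held by the files.

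The study profiled polyadenylated long RNA from the heart of C57BL/6J mice after a sham operation, the control surgery for an infarct. All 4 hearts belonged to the Sham group, came from mice 12 weeks old, and were sampled 2 weeks after surgery at the site corresponding to the border of an infarct. The description of replicate 4 omits the word sham, while its title and treatment give it. The libraries, sequenced as paired reads of 100 bases, are headed 3RL, 7LR, 8R and 12RL, names that tie none of them to a replicate number. With 1 group there is no comparison of conditions, and the results are levels, their spread over 4 hearts and the structure of the models.

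Genes with very many exons mostly encode very long proteins, or proteins built from a short unit repeated many times. In the heart they include the channel that releases calcium from the sarcoplasmic reticulum, the proteins that tie the contractile lattice to the membrane, the collagens and laminins of the matrix between the cells, and large enzymes that mark proteins for degradation. In fibrillar collagens, glycine occupies the first place of every Gly-X-Y triplet, which lets the chains wind into a triple helix. In fibrillins, the repeated unit is a domain held together by pairs of cysteines.

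The repeat could be read directly from exon lengths. Of 625 internal exons in the 11 fibrillar collagen models, 305 (48.8%) were exactly 54 bases long, 84% were a multiple of 9 bases, and 93.8% were a multiple of 3. Among the 14430 internal exons of the 265 other loci, 0.686% were 54 bases long and 46.0% were a multiple of 3. In 18043 loci with 3 to 39 exons, these shares were 0.455% and 39.01%. The sequences below show the unit behind these lengths, from GENCODE M21 transcripts on GRCm38. In the collagen exons, capitals mark the GG of each in-frame glycine codon that opens a triplet of 9 bases. Col1a1 (chr11:94939904-94939957, plus strand), Col3a1 (chr1:45325360-45325413, plus), Col5a1 (chr2:27965251-27965304, plus), Col5a2 (chr1:45434892-45434945, minus) and Col4a1 (chr8:11245211-11245264, minus) each have all 6 marks. Each exon shown is the first matched coding exon of its length in the transcript. The exon of Col1a2 (chr6:4512361-4512414, plus) is the exception, with 2 marks. In the exon of Fbn1 (chr2:125403104-125403229, minus), capitals mark in-frame cysteine codons.
Col1a1, exon 8: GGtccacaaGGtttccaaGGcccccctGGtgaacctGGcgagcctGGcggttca
Col3a1, exon 6: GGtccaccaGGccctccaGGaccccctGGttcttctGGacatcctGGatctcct
Col5a1, exon 15: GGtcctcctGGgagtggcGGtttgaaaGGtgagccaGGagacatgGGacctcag
Col5a2, exon 6: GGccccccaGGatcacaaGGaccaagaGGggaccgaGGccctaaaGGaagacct
Col4a1, exon 7: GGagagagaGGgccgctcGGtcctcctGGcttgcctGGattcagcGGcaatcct
Col1a2, exon 6: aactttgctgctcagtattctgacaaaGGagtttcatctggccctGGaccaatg
Fbn1, exon 8: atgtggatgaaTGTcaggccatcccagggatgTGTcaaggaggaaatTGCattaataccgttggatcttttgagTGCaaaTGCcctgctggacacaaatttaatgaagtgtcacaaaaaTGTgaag

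All 6 marks were present in 21 of 21 matched exons of 54 bases in Col1a1, 24 of 24 in Col3a1, 29 of 29 in Col5a1, 24 of 24 in Col5a2 and 23 of 24 in Col1a2. Each such exon therefore opens with a glycine codon and ends on a whole triplet. Type IV collagen, the network-forming collagen of basement membranes, shares the triplet but not the exon length, since 2 exons of Col4a1 had 54 bases. Both of them carried all 6 marks. Fibrillin 1 follows another unit: 18 of its 64 internal exons had 126 bases, and 21 of 63 did so in Fbn2. The exon printed for Fbn1 has 6 cysteine codons.

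Other loci repeat other lengths. Nebulin (Neb), the thin filament ruler of skeletal muscle, had 58 of 155 internal exons of 105 bases, and Nrap, a nebulin-related protein that anchors actin at the intercalated disc, had 15 of 40 exons of that length. Skint5, a member of an epithelial immunoglobulin-like family, had 48 of 57 internal exons of 63 bases, and Skint6 had 39 of 47. In 23 loci at least 90% of internal exons were a multiple of 3 bases, and 16 of these 23 were collagens. The median share over all 276 loci was 44.7%.

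**Figure D1:**
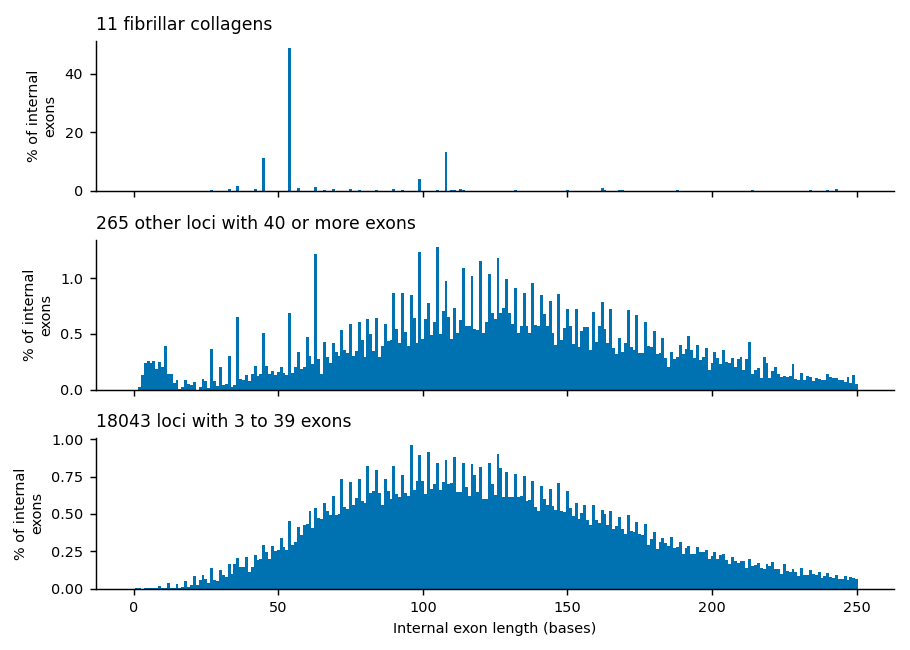
Lengths of internal exons up to 250 bases (horizontal axis, bases) as a percentage of all internal exons in each set (vertical axis). The 11 fibrillar collagens have a bar at 54 bases that holds 48.8% of their exons, against 0.686% in the other loci with 40 or more exons and 0.455% in loci with 3 to 39 exons; the short exons at the left of the middle panel include those of a 565-exon model described at the end of the report.

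The values that follow are normalised read counts, for which the authors scaled each library's read counts by a size factor. The 4 factors have a geometric mean of 0.800, and whether they were set on these 4 libraries alone is not known, so the values are relative and the minimum of 10 below is on that scale. Libraries held 108345923 to 160670654 reads in the table, so counting error is small for most of these loci. A mean of 10 or more over the 4 libraries was called detected: 249 of the 276 loci (90.2%) were, close to the 89.1% of loci with 20 to 39 exons and beside 57.3% of all loci with a UCSC model. Counts of detected loci by role or gene list below are to be read beside this 90.2%. Of the 276, 235 had a mean of 50 or more, 27 lay below 10 and 5 were at 0 in every library. A mean above 10000 was reached by 83. Together the loci held 2.15%, 2.56%, 1.87% and 2.47% of all normalised counts in 3RL, 7LR, 8R and 12RL, a mean of 2.26% ± 0.315 (SD, n = 4). Without mitochondrial loci in the total, the mean share was 3.26%. The highest 2 loci held 19.6% of these counts and the highest 12 held 41.7%. In bulk tissue, fewer cells of a type and less RNA per cell cannot be told apart, and this holds for every level below.

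Long transcripts yield more reads per molecule, so levels are compared between genes per kb of the longest spliced UCSC model with 40 or more exons. The median over detected loci was 611 normalised reads per kb, beside 774 for loci with 20 to 39 exons, 812 for loci with 10 to 19 exons and 634 for all detected loci with a UCSC model. Grouped by role, the highest medians per kb belonged to muscle contraction and membrane repair (2991, 9 detected loci), ubiquitin and proteasome (2811, 14 loci), smooth and non-muscle myosins (2511, 4 loci) and membrane skeleton and linkers (1944, 15 loci). The lowest belonged to dyneins and cilia (44.5, 7 loci). Within each role the levels spread widely, as the plot of levels by role shows.

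**Figure D2:**
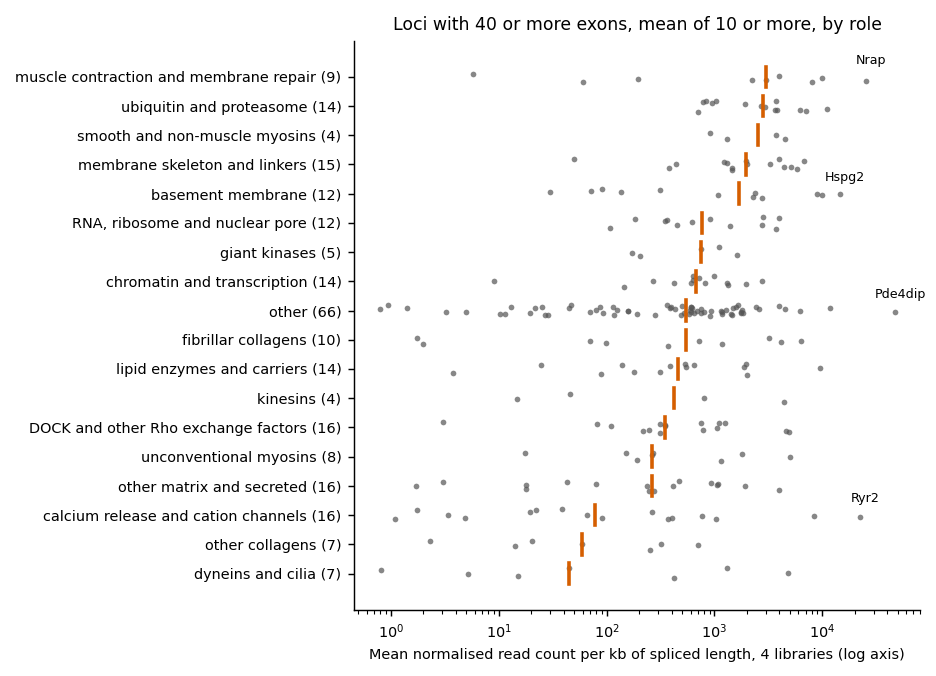
Mean normalised read count per kb of spliced length over 4 libraries (log axis) for the 249 detected loci, 1 point per locus, in rows by role with the number of loci in parentheses; vertical bars are medians. Pde4dip, Nrap, Ryr2 and Hspg2 lie furthest to the right, and dyneins and cilia have the lowest median, 44.5 per kb.

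At the boundary of the rule, 24 loci had exactly 40 exons, of which 22 were detected. The most abundant of them were Wdr90 at 37283 ± 3009 (SD, n = 4) and Col15a1 at 12516 ± 3496 normalised counts. The Wdr90 locus also holds Rhot2, so its count cannot be divided between the genes. Just outside, 31 loci had exactly 39 exons, of which 28 were detected, led by 2610507B11Rik at 84228 ± 6921 and Clasp1 at 60857 ± 2969.

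Each family of calcium release and calcium entry channels had 1 leading member in these hearts. Ryr2 (mm9 chr13:11635682-12201262), the cardiac ryanodine receptor, measured 316127, 423410, 294346 and 473182 normalised counts in 3RL, 7LR, 8R and 12RL, a mean of 376766 ± 85522 (SD, n = 4). Libraries 7LR and 12RL were above the other two. Per kb, Ryr2 stood at 22409 ± 5087, Ryr3 at 21.96 ± 1.91 and Ryr1, the skeletal muscle receptor, at 3.40 ± 1.01. The order was the same in all 4 libraries with no overlap, and Ryr2 exceeded Ryr3 1020-fold per kb of the UCSC models. Over the longest model of any kind at its locus, 28551 bases, Ryr2 stood at 13196 per kb.

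Among the pore-forming subunits of voltage-gated calcium channels, Cacna1c, the L-type channel of the heart, led at 8377 ± 1549 per kb. Its counts were 47902, 61161, 44120 and 64951, again higher in 7LR and 12RL. Cacna1s, the skeletal muscle L-type subunit, followed at 408 ± 43.0 per kb, 20.5-fold lower. This ratio uses the UCSC models. Over the longest model of any kind at its locus, 14315 bases, Cacna1c stood at 3810 per kb. Cacna1a of neuronal P/Q-type channels was at 65.2 ± 7.72 and Cacna1d, an L-type subunit of pacemaker tissue, at 38.5 ± 10.97. These 4 did not overlap between libraries. Cacna1b (4.85 per kb) and Cacna1e (1.09 per kb) were just detected, and Cacna1f was below the minimum at a mean count of 3.79. Among inositol trisphosphate receptors, which release calcium after hormone signals, Itpr1 stood at 768 ± 139 per kb, 2.05-fold above Itpr2 at 374 ± 74.7. Itpr3 at 264 ± 30.7 was below Itpr2 in every library, but their ranges overlapped. The calcium release and calcium channel list of 14 genes has 12 members with 40 or more exons. All 12 were detected, beside 90.2% of all 276 loci.

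Other cation channels spread widely. Pkd1, the large polycystin of membranes and cilia, measured 11716, 18409, 10867 and 18148 counts in 3RL, 7LR, 8R and 12RL. Cacna2d2, a calcium channel accessory subunit, had a mean of 494 ± 45.4, and Nalcn, the sodium leak channel, 140 ± 12.6.

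**Figure D3:**
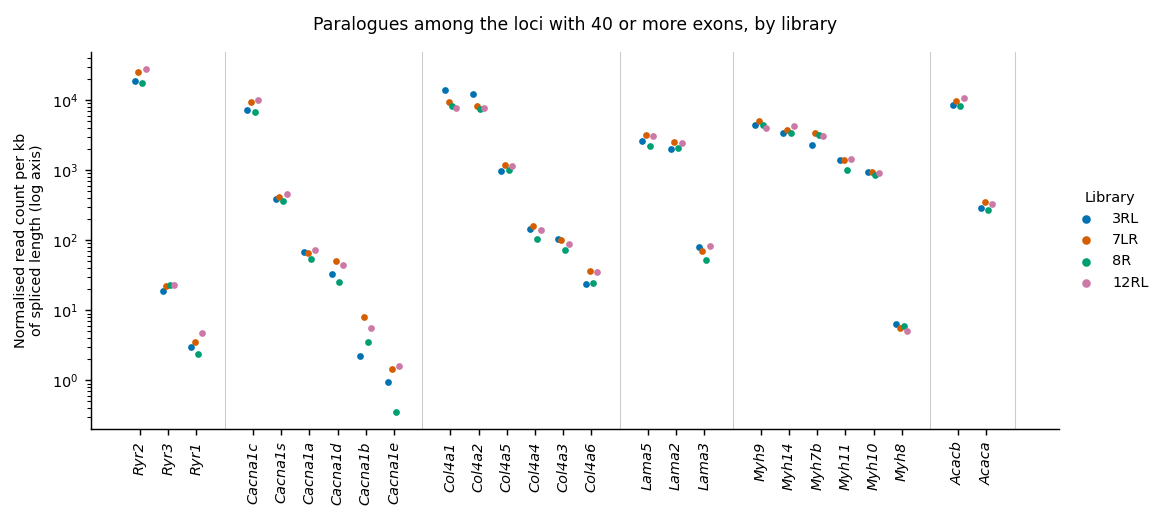
Normalised read count per kb of spliced length (log axis) for the detected members of 6 gene families, 1 point per library, coloured by library. Ryr2 lies far above Ryr3 in every library (1020-fold in the mean), Cacna1c and Acacb lead their families without overlap, and the points of Col4a1 and Col4a2 and of Lama5 and Lama2 overlap.

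The muscle proteins were led by Nrap at 138799 ± 7506 counts, or 25245 per kb, the second highest level per kb of all 276 loci. Its libraries lay close together, from 129901 in 3RL to 147520 in 7LR. Flnc, the filamin of striated muscle Z discs, measured 70009, 68185, 81921 and 71898 in 3RL, 7LR, 8R and 12RL, and was highest in 8R. Speg, a kinase at the junction of the sarcoplasmic reticulum, had a mean of 43224 ± 5256. Dysf, which reseals torn muscle membrane, had 15320 ± 798, and its relative Myof 1377 ± 167. Abcc9, the sulfonylurea receptor subunit of ATP-sensitive potassium channels, grouped here with muscle function, had 75056 ± 9572 counts and 9957 per kb.

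The filamin Flnc (7965 ± 669 per kb) lay above Flna (3304 ± 461) in all 4 libraries with no overlap. Among class II myosins with 40 or more exons, the non-muscle heavy chain Myh9 (4477 ± 447 per kb) and Myh14 (3711 ± 408) overlapped in range, as did Myh14 and Myh7b (2991 ± 497), a slow-type muscle heavy chain. Smooth muscle Myh11 followed at 1311 ± 201 and non-muscle Myh10 at 915 ± 53.9. Heavy chains of skeletal fibres were at the floor: Myh8 at 5.75 ± 0.542 per kb, with Myh1 and Myh3 below the detection minimum at mean counts of 5.81 and 3.23. These skeletal genes lie close together and resemble each other, so how shared reads were split is uncertain. Neb, with 157 exons, had 1378, 1565, 1304 and 1222 counts in 3RL, 7LR, 8R and 12RL, or 60.8 per kb. Of the 16 genes listed for sarcomere and Z disc, 11 have 40 or more exons here. All 11 were detected, beside 90.2% of all 276 loci.

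The highest level per kb belonged to Pde4dip (mm9 chr3:97489060-97692630), or myomegalin, a scaffold of the centrosome and Golgi that also binds sarcomeric proteins. It measured 331753, 404750, 322720 and 449056 counts in 3RL, 7LR, 8R and 12RL, a mean of 377070 ± 60431. Per kb of its 46-exon model this was 46829. Over the longest model of any kind at the locus, 13252 bases, it was 28454 per kb, still the highest of the 276.

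All 15 loci of the membrane skeleton had a mean above 10, beside 90.2% of all 276 loci. Dst, the giant plakin dystonin, measured 93272, 146468, 85525 and 147859 counts in 3RL, 7LR, 8R and 12RL, so 7LR and 12RL again lay above the other two. The spectrin Sptan1, the non-erythroid alpha chain, stood at 6725 ± 701 per kb. Dystrophin (Dmd), which links actin to the membrane, stood at 1309 ± 194 per kb, and its homologue utrophin (Utrn) at 1454 ± 285. Utrn was above Dmd in each of the 4 libraries, but their ranges overlapped. The talins, which couple integrins to actin, kept the order Tln1 (3990 ± 296 per kb) above Tln2 (1944 ± 341) in every library. Macf1 had 48798 ± 8598 counts, and the nesprins Syne1 and Syne2, which link the nuclear envelope to the cytoskeleton, had 21568 ± 5297 and 9492 ± 2253. Ank1, the ankyrin known from red cells and muscle, was highest in 8R at 55495 and lowest in 7LR at 40880. The red cell marker Hba-a1 was also highest in 8R, at 83406 against 25307 to 38496 in the others. Its part in the level of Ank1 was not tested.

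In the basement membrane, Hspg2 (perlecan, a large proteoglycan) measured 108557, 119750, 78118 and 110459 counts in 3RL, 7LR, 8R and 12RL and was lowest in 8R. Col4a1 and Col4a2, whose chains assemble together, had means of 64478 ± 18200 and 54815 ± 13205. Their starts lie 293 bases apart on opposite strands of mm9 chromosome 8, and the ratio of their counts, not divided by length, was 1.22 in 3RL, 1.202 in 7LR, 1.19 in 8R but 1.06 in 12RL. Col4a4 and Col4a3, 71 bases apart, were also near each other at 1066 and 787 counts, a ratio of 1.35. Col4a6 and Col4a5, 1342 bases apart, were not: 181 against 6777, a ratio of 0.0267. Counts within a pair were thus near each other in 2 of these 3 head-to-head pairs.

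Per kb, Col4a1 (9903 ± 2795) and Col4a2 (8900 ± 2144) overlapped in range, and Col4a5 followed at 1083 ± 104, then Col4a4 at 137 ± 23.8, Col4a3 at 91.4 ± 14.3 and Col4a6 at 30.1 ± 6.88. Of the laminin alpha chains, Lama5 (2764 ± 434) and Lama2 (2273 ± 287), the chain of muscle basement membrane, overlapped in range. Lama3 of epithelia was at 71.7 ± 13.5, and Lama1 lay below the detection minimum at a mean of 3.95 counts. Of 14 genes listed for basement membrane, 13 have 40 or more exons here, and 12 were detected.

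All 11 fibrillar collagens listed are among the 276, and 10 were detected. Col3a1 (mm9 chr1:45368194-45408061), the reticular fibre collagen, measured 44691, 29780, 32836 and 14291 counts in 3RL, 7LR, 8R and 12RL. Col1a1 had 21094, 13033, 16969 and 9157, and Col1a2, its partner chain in type I collagen, 25169, 20082, 25318 and 15258. All 3 were lowest in 12RL. Col5a1, a regulator of fibril diameter, had a mean of 7239 ± 1467, and Col5a2 4767 ± 910. Of the collagens known from cartilage, Col2a1 had a mean of 2.32 counts, Col11a1 12.6, Col11a2 394 and Col27a1 758.

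Among microfibrils and other matrix, all 10 listed genes were members and detected, beside 90.2% detected of all 276 loci. Tnxb, a tenascin of connective tissue, had the most counts, 23004 ± 3108. Vwf, the clotting factor carrier of endothelium, measured 8789, 9023, 8111 and 12170, with 12RL highest. Fbn1 had 13062, 9823, 7212 and 6958 in 3RL, 7LR, 8R and 12RL, or 936 ± 287 per kb, 52.5-fold above Fbn2 at 17.8 ± 2.76. Fibronectin (Fn1) varied little, from 8019 in 12RL to 9730 in 3RL. The complement factor C3 had 20288 ± 2878.

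The ubiquitin and proteasome loci were among the most abundant. Psme4, an activator of the proteasome, measured 64959, 66930, 74908 and 75220 counts in 3RL, 7LR, 8R and 12RL. The ligase Huwe1 had 55332 ± 11370. Ubr4, of the ligases that read the N-terminal residue, had 43664 ± 5690, at a locus that also holds Emc1. Ubr2, of the same kind, stood at 3688 ± 594 per kb and Ubr1 at 710 ± 85.3, with no overlap between libraries. Of 15 loci in this role, 14 were detected. Among the PI3K-related giants, Smg1, of nonsense-mediated decay, had 17100 ± 4847 counts, the growth regulator Mtor 13830 ± 1142 and the DNA damage kinase Atm 1962 ± 459. Their median of 755 per kb lay below the 2811 of the ubiquitin and proteasome role.

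In lipid handling, Acacb, the carboxylase whose malonyl-CoA restrains fatty acid entry into mitochondria, measured 73510, 83321, 70994 and 91991 counts. At 9423 ± 1135 per kb it was 30.3-fold above Acaca, the form of lipogenic tissue, at 311 ± 34.6. The fatty acid synthase Fasn had 5316 ± 493 counts. Lrp1, a scavenger and signalling receptor, had the most counts of the listed receptors and carriers, 29514 ± 3711, followed by Abca2 (15241 ± 687) and Abca1 (6629 ± 1172). Of 11 listed receptors and transporters, 8 have 40 or more exons here and 6 were detected.

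Motors divided sharply. The cytoplasmic dynein heavy chain Dync1h1, which carries cargo along microtubules, had 59196, 79265, 57202 and 82143 counts in 3RL, 7LR, 8R and 12RL, while Dync2h1 of intraflagellar transport had 630 ± 145. Per kb this was 4824 against 44.5. The axonemal chains that drive motile cilia were near the floor, with Dnah2 at 15.2 ± 2.37 per kb and Dnah8 at 5.23 ± 1.55, and Dnah5, Dnah9 and Dnah11 below the detection minimum. Of 14 listed dynein chains, 7 have 40 or more exons here and 4 were detected. Ktn1, the kinectin of the endoplasmic reticulum, was steady at 49705, 52995, 53854 and 52740 counts, with a level of 11666 per kb of its 42-exon model. Over the longest model of any kind, 10295 bases, its level was 5082 per kb.

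The 27 loci below a mean of 10 include 5 that were at 0 in all 4 libraries. These were Pkhd1 of kidney and bile duct, Sis, the intestinal sucrase-isomaltase, Muc5ac, an airway and stomach mucin, and Skint5 and Skint6 of skin and thymus. A count of 0 in libraries of this size says only that these loci were not detected. Lrp2, the kidney receptor megalin, had a mean of 2.30, the tyrosine kinase receptor Ros1 0.284 and the complement component Hc 2.60 counts.

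Marker genes were set against the tissue label. Matched cardiomyocyte markers (5 of 7) summed to between 4215766 and 5203733 counts per library. Skeletal muscle markers were matched 5 of 5, with Myh4 at 0 in every library and their sum between 19987 and 51873, most of it Acta1, which heart also expresses. Of the atrial markers, 2 of 3 were matched. Myl7 ran from 2.27 in 8R to 118 in 12RL, while Nppa had 18378, 15578, 18866 and 18029 counts in 3RL, 7LR, 8R and 12RL. Smooth muscle (3 of 3), endothelium (4 of 4), fibroblast (5 of 5), macrophage (2 of 3) and red cell (1 of 2) markers that were matched were above 0 in every library.

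The loci with 40 or more exons deviated together from heart to heart. The deviation of a library is its log2(normalised count + 1) minus the mean of the 4 libraries. Its median over the 249 detected loci was -0.08, 0.12, -0.15 and 0.10 in 3RL, 7LR, 8R and 12RL. The corresponding medians in loci with 20 to 39 exons were -0.02, 0.05, -0.05 and 0.02. The highest value of a locus fell in 7LR for 108 and in 12RL for 95 of the 249, against 21.6% and 20.7% of all 18912 detected loci, and in 3RL for 38 and 8R for 8, against 23.3% and 34.3%. The lowest value fell in 8R for 144 and in 3RL for 58, against 23.9% and 23.1% of all detected loci, in 12RL for 37 (27%) and in 7LR for 10 (26.1%). Detected loci with 20 to 39 exons leaned the same way. Their highest value fell in 7LR for 31.3% and in 12RL for 30.5%, beside 43.4% and 38.2% here. Their lowest fell in 8R for 38.6%, beside 57.8% here. The median SD on this log2 scale was 0.18, beside 0.13 in loci with 20 to 39 exons. It was 0.16 in all detected loci with a UCSC model and 0.19 in all detected loci.

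The size of these deviations went with spliced length above 6 kb. Detected loci of 3 to 6 kb (35 loci) had median deviations of -0.05, 0.08, -0.05 and 0.02 in 3RL, 7LR, 8R and 12RL, where the 5615 loci of that length with fewer than 40 exons lay within 0.01 of 0. Detected loci of 6 to 8 kb (88 loci) had median deviations of -0.04, 0.09, -0.11 and 0.06 in 3RL, 7LR, 8R and 12RL, those of 8 to 12 kb (87 loci) had -0.10, 0.13, -0.17 and 0.16, and those over 12 kb (38 loci) had -0.17, 0.26, -0.32 and 0.21. Loci with fewer than 40 exons but the same length had -0.05, 0.08, -0.12 and 0.06 at 6 to 8 kb (609 loci), and -0.10, 0.14, -0.18 and 0.14 at 8 to 12 kb (234 loci). Over 12 kb, where the 2 sets differed more, they had -0.15, 0.16, -0.23 and 0.21 (35 loci). Across the 249 loci, which share the 4 libraries, Spearman's rho between spliced length and deviation was -0.35, 0.42, -0.45 and 0.41, and that between exon number and deviation was -0.18, 0.28, -0.27 and 0.20. Exon number and length themselves had a rho of 0.57. With the trend on length taken out, the medians over the 249 loci lay between -0.01 and 0.02. Medians near 0 follow by construction here, because these loci were among those that set the trend.

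**Figure D4:**
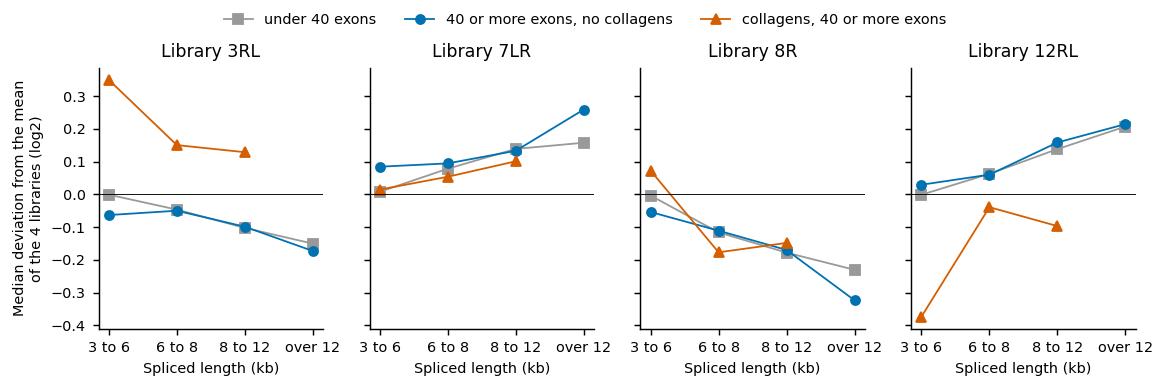
Median log2 deviation of each library from the 4-library mean (vertical axis) against spliced length in kb (horizontal axis, 4 bins), for loci under 40 exons, loci with 40 or more exons other than collagens, and collagens. In the first 2 sets every library lies further from 0 over 12 kb than at 3 to 6 kb, while the collagens lie above 0 in 3RL and below 0 in 12RL in each bin that holds any.

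Deviations are given for several roles. In the membrane skeleton (15 loci) the median deviations were -0.12, 0.23, -0.22 and 0.16 in 3RL, 7LR, 8R and 12RL. Of these 15 loci, 13 were lowest in 8R, beside 57.8% of all 249 detected loci with 40 or more exons. The 5 PI3K-related giants had -0.15, 0.25, -0.34 and 0.24, and the calcium release and cation channels (16 loci) -0.13, 0.16, -0.28 and 0.23. Dyneins and cilia (7 loci), the role with the longest models, had 0.04, 0.21, -0.14 and 0.07. In the ubiquitin and proteasome role (14 detected loci) the values were -0.15, 0.14, -0.17 and 0.19. Of the 14 loci, 12 were highest in 12RL, beside 38.2% of all 249. Scaling to equal table totals shifted the median of all detected loci by 0.07 in 7LR and by -0.10 in 8R. It put 11 of these 14 loci, and 155 of all 249, highest in 7LR instead. The choice between 7LR and 12RL therefore rests on the scaling. With the trend on length removed, the medians were -0.03, 0.10, -0.07 and 0.01 in the membrane skeleton and -0.03, 0.09, -0.13 and 0.07 in the PI3K-related giants. In the ubiquitin and proteasome role they were -0.07, 0.03, -0.02 and 0.07. There 9 of 14 loci were highest in 12RL, beside 59 of all 249.

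Collagens followed another order. Over the 25 detected collagens the median deviations were 0.19, 0.08, -0.12 and -0.15 in 3RL, 7LR, 8R and 12RL. The other 224 loci had -0.08, 0.12, -0.15 and 0.11, so the signs in 3RL and 12RL were opposite, as they were under TMM, the median of ratios and equal totals. The highest value fell in 3RL for 13 of the 25, beside 15.3% of all 249 loci. The lowest fell in 12RL for 11 of these collagens, beside 14.9%. The abundant ones carried the pattern: of 15 collagens with a mean of 1000 or more, 12 were highest in 3RL, against 18.6% of all 9122 loci above that mean, and 10 were lowest in 12RL, against 23.6%. Col3a1 was 3.13-fold higher in 3RL than in 12RL, Col1a1 2.30-fold, Col15a1 1.89-fold, Col4a1 1.78-fold and Col18a1 1.70-fold. Of the 10 detected collagens with a mean under 1000, 8 were lower in 3RL than in 12RL, such as Col7a1 with 95.5 and 167 counts. Fibrillar collagens (10 loci) had medians of 0.29, -0.01, 0.05 and -0.23, and a median SD of 0.40. With the trend on length removed, the collagen medians were 0.25, -0.02, -0.05 and -0.22. Without 3RL, the median in 12RL was -0.03, so the low side rests in part on the contrast with that library.

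Other markers were set beside the collagens. The 3 fibroblast markers that are not collagens, Dcn, Lum and Pdgfra, summed to 63525, 61180, 66789 and 64737 counts in 3RL, 7LR, 8R and 12RL. Most of this sum was Dcn (51752, 49891, 55985 and 53691), which was highest in 8R, and Pdgfra (5594, 5834, 4935 and 6360) was highest in 12RL. Lum (6180, 5455, 5868 and 4686) was highest in 3RL and lowest in 12RL, as the abundant collagens were. The 3 endothelial markers outside the set (Pecam1, Kdr and Cdh5) summed to 110676, 85616, 79215 and 85016, and the matched macrophage markers to 8954, 7324, 7658 and 6297. Both of these were highest in 3RL. Acta2 and Tagln of smooth muscle summed to 18683, 11930, 13660 and 12770, also highest in 3RL. The part of these cell types in the collagen result was not tested.

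**Figure D5:**
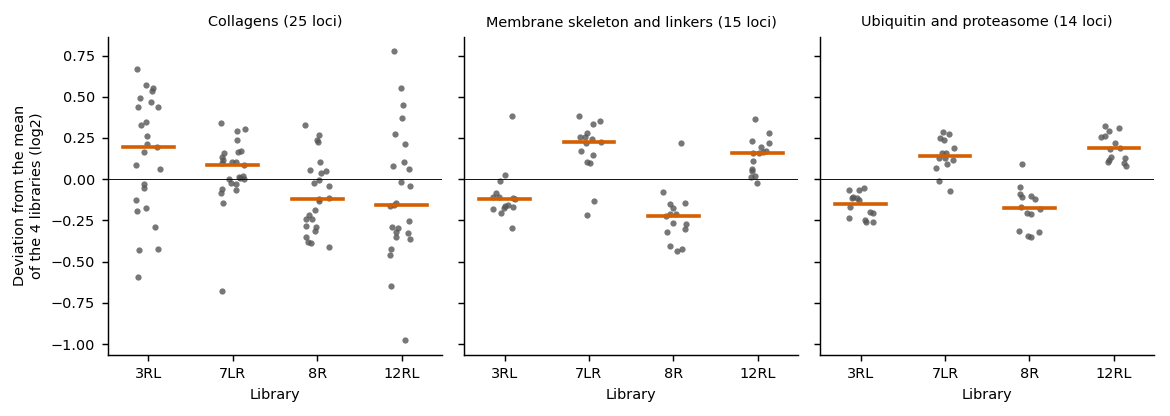
Log2 deviation of each library from the 4-library mean (vertical axis), 1 point per locus with the median as a bar, for 25 collagens, 15 loci of the membrane skeleton and 14 loci of the ubiquitin and proteasome role. The collagen medians are 0.19 in 3RL and -0.15 in 12RL, while those of the membrane skeleton are -0.12 and 0.16.

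Variability was also ranked by the CV after allowing for its dependence on the mean, taking the 14424 loci whose mean was at least 50. Of the 235 ranked loci with 40 or more exons, 18 (7.66%) were among the 500 most variable, beside 3.47% of all ranked loci. The 10 highest were Col3a1 (rank 71, CV 41.2%), Col1a1 (rank 127), Fbn1, Col5a3, Smg1, Col15a1, Pkd1, Cdh23, Kmt2c and Col4a1, of which 6 encode matrix proteins. Both orders seen above were present among them. Fbn1, Col5a3 (3275, 2077, 1727 and 1993) and the other matrix genes were highest in 3RL. Smg1 (12938, 20413, 12950 and 22097), Pkd1, the cadherin Cdh23 (1313, 2287, 1206 and 1936) and the histone methyltransferase Kmt2c were higher in 7LR and 12RL than in the other two.

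A single library stood apart at few of the loci by Dixon's ratio. It did so upward at 3 of 249 (1.205%), against 3.35% of all detected loci, and downward at 6 of 249 (2.41%), against 1.53%. With TMM scaling no locus stood apart upward, and with the trend on length removed 10 did.

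The deposited models include spliced isoforms that the authors' assembly added to known genes, marked with class code j, which share at least 1 splice junction with a known model. Of the 276 loci, 127 (46.0%) had such an isoform, against 17% of all loci with a UCSC model. Detection and exon number go along with this: among detected loci the share was 50.2% here, 48.0% in loci with 20 to 39 exons and 29.3% in all loci with a UCSC model. Ktn1 and Huwe1 had 10 such models each, and Dst, Macf1 and Dock9 had 9 each. In 40 of the 127 an assembled isoform had more exons than any UCSC model, a share that was not computed for other loci. The increase was at least 10 exons in 9 loci. Syne1 went from 55 to 146 exons, Macf1 from 44 to 98, Hspg2 from 55 to 97, Lama3 from 56 to 75 and Dock10 from 40 to 56. For these the UCSC model is a part of the locus, and the level per kb is overstated. Hspg2, for example, stood at 14441 per kb of its UCSC model and at 7180 per kb of its longest model. The longest model of any kind also gave a lower level at loci without such an increase in exons. Abcc9 went from 9957 to 6548 per kb and Dync1h1 from 4824 to 3193.

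Some loci hold more than 1 gene. In 7 the structure matched a second gene: Ubr4 with Emc1, Wdr90 with Rhot2, Dock6 with Kank2, Brwd1 with Psmg1, Med12 with Gm21986, Myo15 with Drg2, and C4a with its near-identical copy C4b. Their counts cannot be divided between the genes. In all, 95 of the 276 overlap a further locus. Among these are Pkd1 and Tsc2, which run toward each other and overlap by 578 bases on mm9 chromosome 17. The share over all loci was not computed, either for a second gene or for an overlap. Counting by strand is not given in the sources used here, so reads in such overlaps may be misassigned. The locus with the most exons, 565 (mm9 chr12:114493110-117248164), was given no gene name by the structural match. It had a mean of 1941 ± 312 counts and a median internal exon of 11 bases. Its 563 internal exons are among the 14430 counted above outside the fibrillar collagens. After it came Neb with 157 exons, Col7a1, the anchoring fibril collagen, with 118, Syne2 with 116, the hemicentin Hmcn1 with 107 and Ryr1 with 106. The other 2 unnamed loci overlap each other on opposite strands (mm9 chr6:67505630-70690548 with 76 exons and chr6:67892068-70408032 with 97), and had means of 220 ± 71.6 and 61.1 ± 18.4 counts.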

How the data were processed

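Poly(A)-selected heart RNA of 4 sham-operated mice was analysed. The deposited table holds signal values, which are gene counts that the authors divided by 1 size factor per library. Whole reads were recovered from it, with 100% of values within 0.001 of a whole number. The deposited transcript models give exon positions on mm9, 1 file for all hearts. TopHat2 2.0.5, DESeq, HTSeq 0.5.4p2 and Cufflinks 2.0.2 are named in the submitters' processing notes, as is mm9. Strandedness and counting mode: not given in the sources used here.

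The plan allowed gene symbols only where a reference table pairs them with identifiers of the files. No table did, so symbols came instead from the exon structure match to GENCODE M21 (GRCm38), a departure from that plan; a symbol needed at least 50% of exons and an entry in the RefSeq table of GRCm38.p6. A second gene with at least 5 exons and 10% marked a merged locus. No coordinate was converted between builds. Some members are counted but not reported here by name. Members and gene lists were chosen with earlier results of these data known, roles were assigned from the names afterwards, and the gene families shown were chosen after their values were seen. Named loci are the 12 highest by mean, the 8 highest per kb, the 10 most variable, the 6 with the most exons, those at the exon threshold, the 3 highest of each list and up to 3 at 0; other names illustrate roles or families and were chosen after their values were seen.

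Levels were compared per kb, and spread on log2(value + 1). With 1 group no count test between conditions was possible, and SDs measure the spread between 4 hearts. Expected variability at a given mean was a running median over ranked loci, and the trend on length was removed the same way. Both steps were tested on simulated data. Alternatives were TMM scaling (edgeR 4.0.16, R 4.3.3), the median of ratios, equal totals, other minimums, other lengths and leaving out each library. Python 3.11.15, numpy 2.4.6, scipy 1.17.1, pandas 2.3.3 and matplotlib 3.10.9 were used.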

Additional observations from a re-analysis of the deposited data

Results flagged for a closer look

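Dixon's ratio for 4 values marked 1 library as distant from the rest at 9 of the 249 detected loci. By this rule about 1 in 20 groups of independent, normal values would be marked. The 249 loci share the same 4 libraries, so how 9 stands to chance was not tested. The shares were 1.205% upward and 2.41% downward, against 3.35% and 1.53% of all detected loci. The loci are therefore given as values only. Upward, Abca4, a retinal lipid transporter, reached 1255 counts in 12RL against 904 to 961 in the others, Cacna2d2 561.3 in 12RL against 464 to 477, and the Rac exchange factor Prex1 2103 in 3RL against 1376 to 1470. Downward, the smooth muscle myosin Myh11 was at 6279 in 8R against 8689 to 8910, the scavenger receptor Stab1 at 9334 in 12RL against 11886 to 11970, and Tsc2, which restrains Mtor, at 23442 in 7LR against 24643 to 24800. Rttn was at 790.2 in 3RL against 875 to 878. The axonemal dynein Dnah8 was at 42.57 in 12RL against 84.3 to 90.7, and Hydin, of motile cilia, at 5.684 in 8R against 14.3 to 15.9, both at low counts. The smooth muscle markers Acta2 and Tagln were not lowest in 8R, at 10101 and 3559 counts.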

How the results depend on the processing

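No paired analysis was possible because all libraries belong to 1 group. Of 41 alternatives other than leaving out a library, 21 left a value the same and 20 moved it. The same meant within its spread for shares, levels per kb, SDs and spreads of medians. For counts of loci and for collagen medians it meant within a fixed margin. Only the collagen medians could change sign, and none of them did. A minimum of 50 exons, which leaves fewer loci, gave 109 detected loci, a share of counts of 0.979%, 456 reads per kb (603.8 as the mean of the library medians with 40 exons), a median SD of 0.2552, a spread of the library medians of 0.3772 (0.2603 with 40), 1 locus apart upward and 51 loci with an assembled isoform. The share without mitochondrial loci was 3.259%. The level per kb was 504 over the union of exons and 446.5 with no minimum mean. The median SD (0.184) was 0.2014 with no minimum mean, 0.1142 with the trend on length removed, 0.2343 with equal totals, 0.1974 with TMM and 0.1957 with the median of ratios. The spread of medians was 0.02213 with the trend removed, by construction, 0.3053 with TMM and 0.4306 with equal totals. Loci apart upward numbered 3, and 10 with the trend removed or 0 with TMM; the cause was not tested.

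Leaving out each library gave 248 to 249 detected loci, shares of 2.164% to 2.394%, 588.7 to 618.2 reads per kb, median SDs of 0.1744 to 0.189 and spreads of 0.1922 to 0.2606. For the collagens, in alternatives chosen after seeing the data, the median in 3RL ran from 0.1915 to 0.2532 over scalings and 0.1074 to 0.2379 without a library, and that in 12RL from -0.2161 to -0.1343 and from -0.2418 to -0.02926, the last without 3RL. Counting error at 10 reads amounts to a CV of 31.6%, which limits the loci near the minimum.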

Other observations

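Members that serve cell division or DNA repair include some of the least abundant detected loci. They were chosen after their values were seen, and are given as values only. Cenpe, the kinesin of the kinetochore, had 155, 140, 107 and 59.9 counts in 3RL, 7LR, 8R and 12RL. Kntc1, of the kinetochore checkpoint, had 111, 84.3, 63.7 and 25.2. Fancd2, of crosslink repair, had 89.5, 72.9, 60.3 and 28.4. All 3 were highest in 3RL and lowest in 12RL, the library with the fewest reads. Cit, the citron kinase of cytokinesis, had 366, 391, 274 and 246. Fanca had 384, 341, 269 and 277, and the polymerase Pole 588, 764, 582 and 654. Ckap5, a microtubule polymerase also used outside division, was far higher at 9717 ± 670 (SD, n = 4).

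All 11 DOCK members with 40 or more exons were detected, beside 90.2% of all 276 loci. These exchange factors activate Rac and Cdc42. Per kb they ran from Dock6, whose locus also holds Kank2, at 4878 ± 62.3, through Dock9 (1262 ± 133) and Dock1 (1106 ± 62.9), whose ranges overlap, to Dock3 at 3.03 ± 0.431. Dock2, known from leukocytes, stood at 82.2 ± 3.02. Dock4, Dock8 and Dock5 lay between 314 and 348 with overlapping ranges. Among unconventional myosins, Myo18a led at 5018 ± 455 per kb and Myo7b was lowest at 17.4 ± 4.31. The hearing protein gene Myo15 (267 ± 27.9) shares its locus with Drg2, so its level is uncertain.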
